A study of Mus musculus with 12 samples.

Results

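Astrocyte identity and reactivity genes were examined in messenger RNA sequencing of brain and liver from aged C57BL6/J wild type mice. The 10 genes Gfap, S100b, Aqp4, Slc1a2, Slc1a3, Aldh1l1, Glul, Gja1, Vim and Sox9 were taken by symbol from the 25239 genes of the deposited count table, and all 10 were listed. The male mice were 24 months old. The heat stress group was kept at 40 °C and a relative humidity of 60% for 3 hours per day over 15 days, and the control group of the same strain and age was not. Each tissue gave 3 control and 3 heat stress libraries, 12 in all, made from pieces of frozen tissue of unnamed position within the organ, so the brain values are averages over whatever cells and regions the piece held. The labels number the libraries and do not state which animal each came from, so p-values measure the spread between these libraries.

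Astrocytes are the glial cells that take up synaptic glutamate, return it to neurons as glutamine, buffer potassium and water, and enclose brain capillaries with their endfeet. On injury or inflammation they can become reactive, a state classically read from more of the filament proteins GFAP and vimentin. In bulk tissue, fewer astrocytes and less RNA per astrocyte cannot be told apart.

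The total count per library was 10552686 to 14597197 in brain and 10466198 to 15609040 in liver. In brain, the 10 genes took 0.624% to 0.842% of all counts, and none of them had fewer than 314 counts in any library. Neuron markers summed to 5646 to 7390 CPM (counts relative to the library total, scaled by TMM factors) in the brain libraries and to 13.3 to 31.4 in the liver libraries. The ribosomal RNA row Rn45s took 1.62% to 6.07% of brain counts, the most in control library 2. Skeletal muscle markers summed to 298 CPM in liver control library 1 and to 1795 in liver heat stress library 2, against 0.932 to 5.76 in the other 4 liver libraries.

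The stretches just upstream of 3 of the genes are shown because S100b and Aldh1l1 had the highest and the lowest brain fold change of the 10, and because the letters of a heat shock element core were found at Slc1a3 only. Each is the 250 bases before the transcription start given by RefSeq on GRCm38.p6, for S100b chr10:76253586-76253835 on the plus strand, for Aldh1l1 chr6:90550543-90550792 on the plus strand and for Slc1a3 chr15:8710808-8711057 on the minus strand. Capitals mark matches, on either strand, to any of the motifs searched.
S100b: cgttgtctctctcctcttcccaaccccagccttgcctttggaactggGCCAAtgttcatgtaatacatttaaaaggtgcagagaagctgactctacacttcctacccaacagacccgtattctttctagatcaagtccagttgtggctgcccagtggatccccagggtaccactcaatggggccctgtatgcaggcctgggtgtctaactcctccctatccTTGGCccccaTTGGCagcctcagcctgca
Aldh1l1: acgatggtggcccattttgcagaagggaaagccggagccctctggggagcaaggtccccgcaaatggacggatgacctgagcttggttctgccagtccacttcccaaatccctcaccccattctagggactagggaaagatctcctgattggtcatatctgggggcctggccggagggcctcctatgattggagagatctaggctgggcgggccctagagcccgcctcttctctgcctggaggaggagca
Slc1a3: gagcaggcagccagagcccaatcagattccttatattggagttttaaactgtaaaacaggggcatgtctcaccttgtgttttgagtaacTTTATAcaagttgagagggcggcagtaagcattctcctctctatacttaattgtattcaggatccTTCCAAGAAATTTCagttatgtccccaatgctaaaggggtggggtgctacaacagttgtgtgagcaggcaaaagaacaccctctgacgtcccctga

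The motifs searched were the heat shock element core GAANNTTC, the STAT palindrome TTCNNNGAA, the nuclear factor I palindrome and the motif TTGGC that forms each of its arms, the TATA box TATAAA and the SOX motif ACAAAG. Of the 10 genes, 8 had an entry among the 32851 promoters of the table, and Aqp4 and Sox9 had none. The heat shock element core was found at Slc1a3, from -90 to -83 relative to the start, and in 6.69% of all promoters. The STAT palindrome was also found at Slc1a3, from -96 to -88, so that the capitals of both motifs run together, and in 7.02% of all promoters. The arm TTGGC occurred at 4 of the 8 genes, with 3 copies at S100b, and in 41.5% of all promoters. The letters of the TATA box occurred at Slc1a3 and Vim and in 12.4% of all promoters. They lay from -161 to -156 at Slc1a3, on the strand opposite the gene, and from -32 to -27 at Vim. The full nuclear factor I palindrome (0.0365% of all promoters) and the SOX motif (16.5%) occurred at none of the 8, and the Aldh1l1 stretch held no match at all. The RefSeq starts of Aldh1l1, Gfap, Slc1a2 and Vim lie inside the genes as GENCODE M21 draws them.

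The first comparison asked whether heat stress was accompanied by a different level of these genes in brain. Heat stress and control brain libraries overlapped for 9 of the 10 genes. Aldh1l1 alone was lower in all 3 heat stress libraries, by 1.42-fold, and 8 of the 10 genes had a log2 fold change below 0, while Gfap and S100b lay above 0. When p-values of edgeR's quasi-likelihood test were adjusted after Benjamini and Hochberg over the 14806 genes tested, none of the 10 passed an adjusted p of 0.05, and DESeq2 and limma-voom called none either. At an unadjusted p under 0.05, 1 of the 10 was lower and 0 were higher, where 10.05% of all tested genes were lower and 10.0% higher. In the fit of all 12 libraries none of the 10 was lower (4.1% of all tested genes). Without control library 3 the count of lower genes was 3 (8.12% of all tested genes), and the count of higher genes was 1 without control library 2 (13.6%) or heat stress library 3 (9.66%). Groups did not overlap in the lower direction for 1 of the 10 and for 11.98% of all tested genes, and in the higher direction for 0 of the 10 and for 12.9%. The median log2 fold change of the 10 genes was -0.17 with a range of -0.50 to 0.51, and that of all tested genes was -0.0030. Below 0 lay 8 of the 10 and 50.3% of all tested genes. Across all tested genes edgeR also called 0, with 2969 at an unadjusted p under 0.05 (20.1%), whereas DESeq2 called 549. The smallest adjusted p of any tested brain gene by edgeR was 0.170, a value shared by several of the genes named below.

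**Figure D1:**
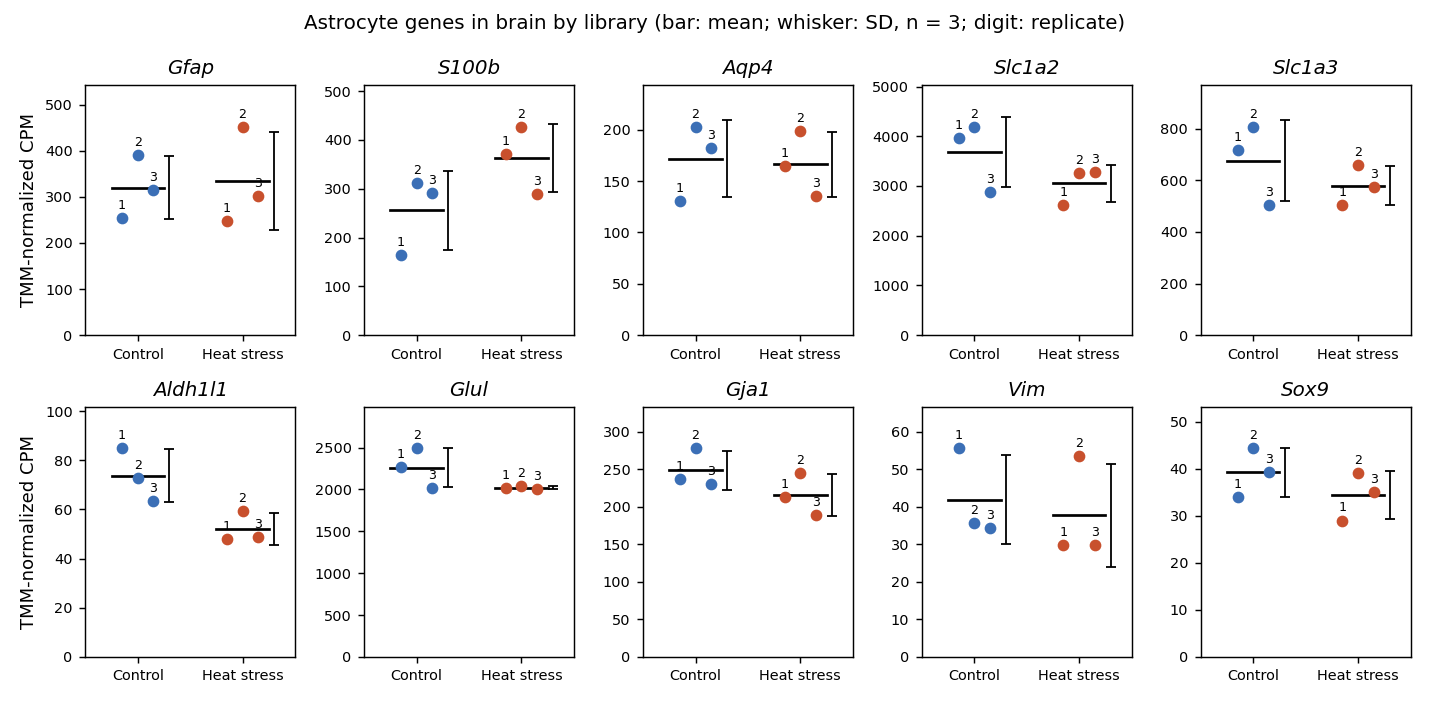
Normalized level (TMM-normalized CPM, axes from 0) of each of the 10 astrocyte genes in the 3 control (blue) and 3 heat stress (orange) brain libraries, with the replicate number beside each point, the group mean as a bar and the SD as a whisker. The groups overlap in 9 panels, and only in the Aldh1l1 panel do all heat stress points lie under all control points.

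Among the genes of glutamate uptake and metabolism, Slc1a2 encodes GLT-1, the main glutamate transporter of the forebrain, and lies at chr2:102658659-102790784. Slc1a2 measured 3960, 4194 and 2882 CPM in control libraries 1, 2 and 3 and 2625, 3254 and 3290 CPM in heat stress libraries 1, 2 and 3. Control libraries 1 and 2 were the highest, but control library 3 was below 2 of the heat stress libraries. The log2 fold change was -0.27 ± 0.19 (SE, n = 3 per group, adjusted p = 0.456, edgeR's quasi-likelihood test). Slc1a3 encodes GLAST, the glutamate transporter that prevails in the cerebellum and in radial glia, and lies at chr15:8634124-8710764. Slc1a3 measured 716, 808 and 504 CPM in control and 506, 658 and 575 CPM in heat stress libraries. As for Slc1a2, control libraries 1 and 2 were on top, and control library 3 was the lowest of all 6. Its log2 fold change was -0.22 ± 0.19 (SE, adjusted p = 0.532, edgeR). Without control library 3 the values were -0.42 for Slc1a2 and -0.40 for Slc1a3, and without control library 2 they were -0.17 and -0.08.

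Glul encodes glutamine synthetase, which turns glutamate into glutamine inside astrocytes, and lies at chr1:153899944-153909723. Glul measured 2273, 2490 and 2017 CPM in control and 2016, 2039 and 2009 CPM in heat stress libraries. The 3 heat stress values lay within a coefficient of variation of 0.770%, against 10.5% in control, and 1 control library was level with them. Glul had a log2 fold change of -0.16 ± 0.15 (SE, adjusted p = 0.561, edgeR), with -0.09 without control library 2.

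Aqp4, the water channel of the astrocyte endfoot, measured 131, 203 and 182 CPM in the control libraries, against 165, 199 and 136 CPM under heat stress. The lowest and the highest value were both in the control group. Its log2 fold change was -0.05 ± 0.19 (SE, 95% interval -0.48 to 0.38, adjusted p = 0.911, edgeR). Gja1 encodes connexin 43, the main gap junction protein that couples astrocytes, and lies at chr10:56377330-56402513. Gja1 measured 237, 278 and 231 CPM in control and 212, 245 and 189 CPM in heat stress libraries, and heat stress library 2 lay above 2 control libraries. Gja1 had a log2 fold change of -0.20 ± 0.14 (SE, adjusted p = 0.423, edgeR), with -0.31 without heat stress library 2 and -0.12 without heat stress library 3.

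The 2 filament genes, by which reactive astrocytes are commonly recognised, showed no common direction. Gfap (chr11:102887336-102900912), the intermediate filament protein of mature astrocytes, measured 254, 390 and 316 CPM in control and 248, 452 and 302 CPM in heat stress libraries. The lowest and the highest library were both heat stress libraries. The log2 fold change was 0.06 ± 0.23 (SE, adjusted p = 0.901, edgeR), and its 95% interval of -0.46 to 0.59 leaves room for a change of either sign. Vim (chr2:13573927-13582826) encodes vimentin, a filament protein of immature and reactive astrocytes that endothelial and ependymal cells also make. Vim measured 55.5, 35.7 and 34.3 CPM in control and 29.8, 53.5 and 29.7 CPM in heat stress libraries, so that 1 library of each group stood well above the other 4. Vim had a log2 fold change of -0.15 ± 0.26 (SE, adjusted p = 0.766, edgeR).

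Aldh1l1 (chr6:90486427-90600203) encodes a folate-metabolising dehydrogenase that serves as a marker of astrocytes throughout the brain. Aldh1l1 measured 84.9, 72.9 and 63.6 CPM in control and 47.9, 59.6 and 48.7 CPM in heat stress libraries. Every control library was above every heat stress library, although the lowest control and the highest heat stress value were 63.6 and 59.6 CPM. The log2 fold change was -0.50 ± 0.14 (SE, unadjusted p = 0.00578, adjusted p = 0.170, edgeR), and DESeq2 gave an adjusted p of 0.0512. The adjusted p over the other settings tried, libraries left out aside, ran up to 0.575. Of its exon bases, 499 (11.05%) are shared with the antisense gene Gm15756, and the sources do not state whether the counting used strand. With Gm45901, on the same strand, Aldh1l1 shares 105 exon bases (2.33%). Glul shares exon bases with Teddm2 on the opposite strand (3.49%) and Mir8114 on the same strand (2.8%), and Slc1a2 with the antisense gene Gm13872 (1.44%). Sox9 (chr11:112782224-112787760), a transcription factor kept on in adult astrocytes, measured 34.0, 44.3 and 39.3 CPM in control and 29.0, 39.1 and 35.1 CPM in heat stress libraries. The Sox9 groups overlapped, with a log2 fold change of -0.19 ± 0.15 (SE, adjusted p = 0.494, edgeR), which was -0.29 without heat stress library 2 and -0.08 without heat stress library 1.

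S100b (chr10:76253853-76261159) encodes a small calcium-binding protein that astrocytes release and that oligodendrocytes contain as well. S100b measured 163, 312 and 291 CPM in control and 372, 427 and 289 CPM in heat stress libraries. Heat stress libraries 1 and 2 were the highest of the 6, heat stress library 3 lay just below control libraries 2 and 3, and control library 1 was far below the rest. The log2 fold change was 0.51 ± 0.24 (SE, 95% interval -0.04 to 1.05, unadjusted p = 0.0657, adjusted p = 0.276, edgeR). Without control library 1 it was 0.27, and without control library 2 it was 0.67. Oligodendrocyte markers summed to 7334, 9340 and 12740 CPM in control and 12402, 9995 and 9150 CPM in heat stress libraries, with control library 1 again the lowest, and their part in the S100b values was not tested.

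**Figure D2:**
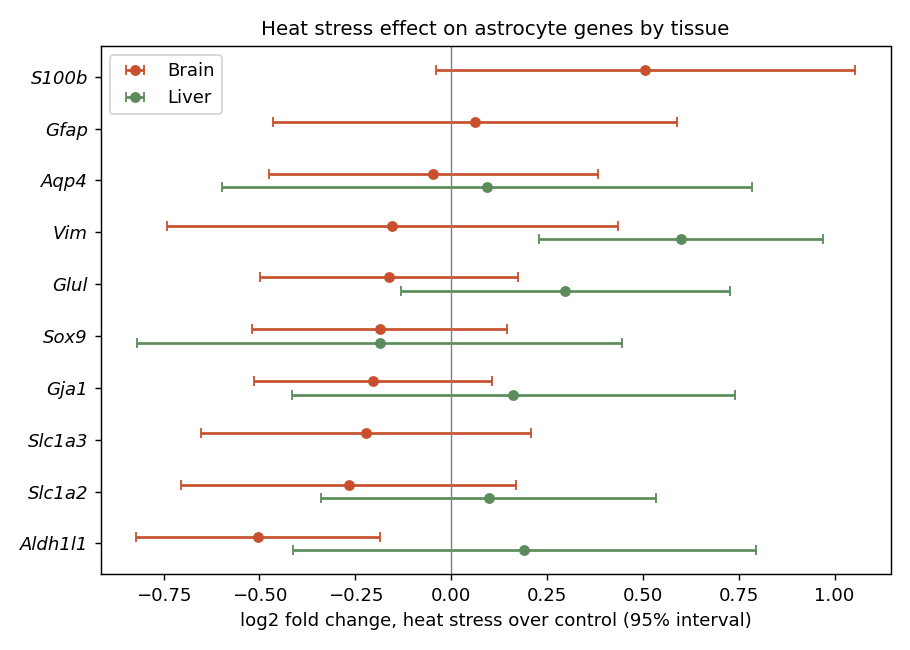
Log2 fold change of heat stress over control with its 95% interval for each astrocyte gene in brain (orange, 10 genes) and liver (green, the 7 genes tested there), ordered by the brain value. In brain the interval excludes 0 for Aldh1l1 only, and in liver for Vim only.

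The 10 genes did not rank the brain libraries in a common order. Control library 2 had the highest value for 6 of the 10 genes, control library 1 for 2 and heat stress library 2 for 2. Heat stress library 1 was lowest for 4 genes, heat stress library 3 for 3, control library 1 for 2 and control library 3 for 1. The sum of the 10 genes was 7909, 8829 and 6561 CPM in control and 6250, 7427 and 6904 CPM in heat stress libraries, which overlapped. Spread between libraries also depended on the gene, with a coefficient of variation in control from 10.3% for Gja1 to 31.5% for S100b and in heat stress from 0.770% for Glul to 36.3% for Vim.

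Ratios between members do not depend on the scaling of a library. Of the 45 ratios, 7 separated the control from the heat stress brain libraries (15.6%), where 22.3% of all pairs of tested genes did. S100b took part in 5 of the 7 and Aldh1l1 in 3. The ratio of S100b to Aldh1l1 was 1.92, 4.28 and 4.58 in the control and 7.76, 7.17 and 5.93 in the heat stress libraries. That of S100b to Aqp4 was 1.25, 1.54 and 1.60 in the control and 2.26, 2.15 and 2.13 in the heat stress libraries, and that of Gfap to S100b was 1.55, 1.25 and 1.09 against 0.667, 1.06 and 1.05. In all 3 ratios the heat stress libraries held more S100b relative to the other gene than any control library. These 3 were picked from the ratios that separated the groups, so their separation follows from that choice. The ratios of S100b to Slc1a2, Slc1a3, Glul and Vim did not separate the groups.

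When log2 CPM was centred per gene and averaged over the members, the profile was -0.0069, 0.23 and -0.05 in the control and -0.19, 0.19 and -0.16 in the heat stress libraries. Gja1 lay nearest to this mean profile, at a root mean square difference of 0.0767 over the 6 libraries, and S100b farthest, at 0.437. Among the 10517 other tested genes of at least 10 CPM, the nearest were Ddah1 (0.0261), Sox2 (0.0460), Nr2f1 (0.0468) and Unc119b (0.0497). Sox2 encodes a transcription factor of neural stem cells and astrocytes. These values are a description over 6 libraries.

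Between genes, levels were compared per kilobase of exon. In control brain Glul was highest at 680 ± 71.3 CPM per kilobase (SD, n = 3), followed by Slc1a2 at 280 ± 53.3 and S100b at 172 ± 54.3. Slc1a3 (79.2 ± 18.3) and Gfap (75.9 ± 16.2) did not differ beyond their spread, nor did Aqp4 (27.6 ± 6.0) and Gja1 (24.2 ± 2.49). Aldh1l1 followed at 16.3 ± 2.36, and Sox9 (9.49 ± 1.25) and Vim (8.82 ± 2.50) were the lowest and overlapped. In heat stress brain the order was the same but for S100b, at 244.5 ± 46.9 CPM per kilobase, which overlapped Slc1a2 at 233 ± 28.5, and for the overlapping neighbours Gfap (79.2 ± 25.1) and Slc1a3 (67.9 ± 8.9).

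**Figure D3:**
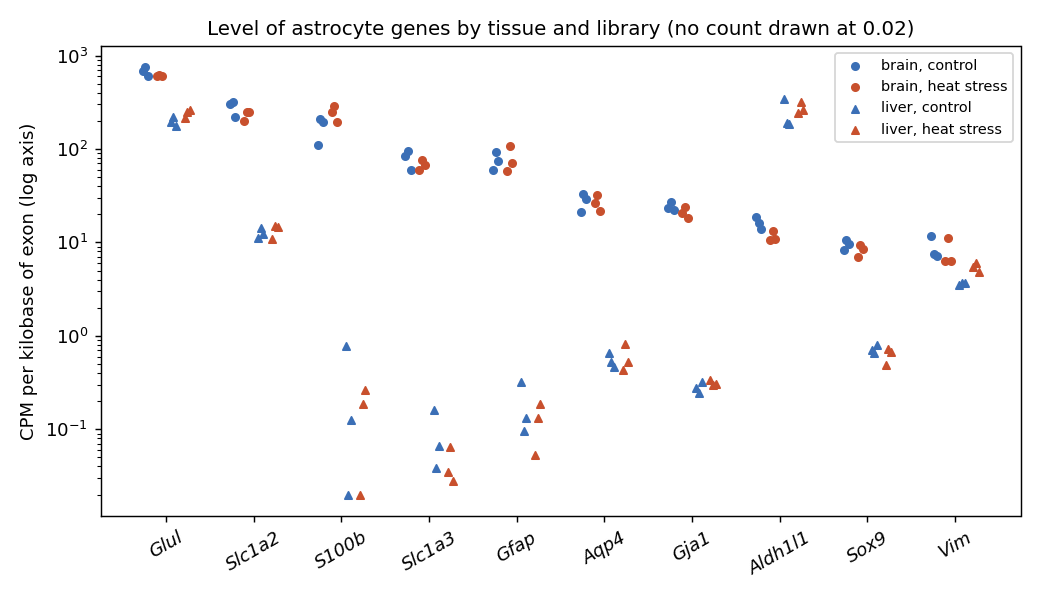
Level of each astrocyte gene in CPM per kilobase of exon (log axis) in the 12 libraries, scaled within each tissue, with circles for brain and triangles for liver, blue for control and orange for heat stress, ordered by the control brain mean; the libraries without a count are drawn at 0.02. Brain lies above liver by an order of magnitude or more for most genes, Aldh1l1 is the reverse, and Vim and Glul lie closest between the tissues.

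Fold changes in brain went with transcript length over all genes. The 14562 tested genes with a known length were put into 5 length classes of equal size. From the shortest to the longest class, the median log2 fold change went from 0.20 over 0.04, -0.02 and -0.07 to -0.16, and Spearman's rho was -0.38 with length and -0.30 with GC content. This is a correlation across genes, which are not independent replicates. S100b, with a transcript of 1484 bases, belongs to the shortest class and had the highest log2 fold change of the 10, while Aldh1l1, at 4175 bases, belongs to the class of 3953 to 5335 bases. After a correction of each library for length and GC content, chosen after seeing the data, the log2 fold change was 0.36 for S100b (unadjusted p = 0.134, edgeR), -0.35 for Aldh1l1 (unadjusted p = 0.0263) and -0.34 for Gja1 (unadjusted p = 0.0199). The adjusted p-values were 0.508, 0.346 and 0.340 respectively. With this correction 2 of the 10 genes were lower and 0 higher at an unadjusted p under 0.05, where 6.23% of all tested genes were lower and 6.75% higher. Whether RNA quality differed between the groups was not tested.

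**Figure D4:**
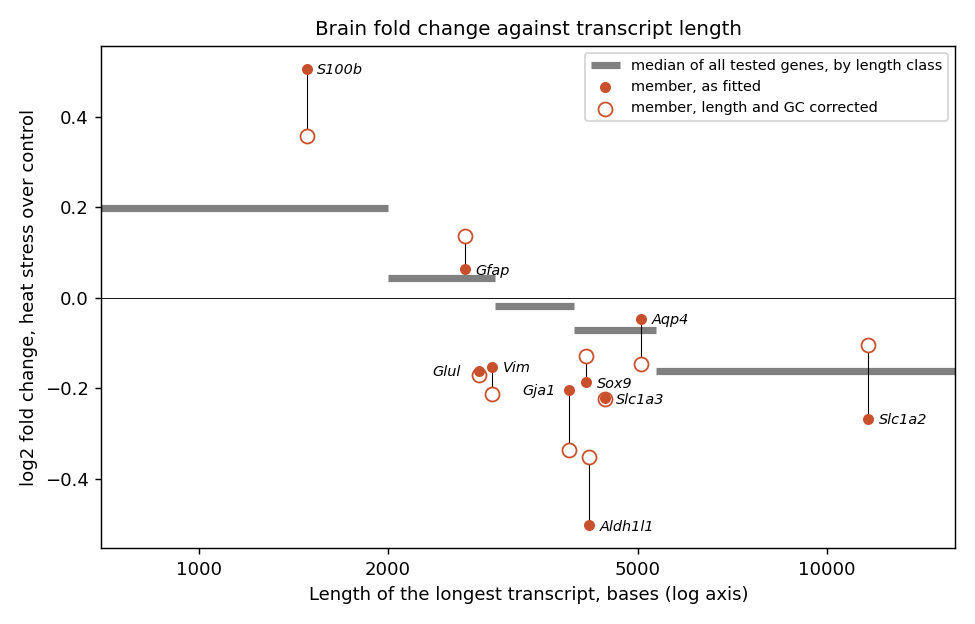
Log2 fold change of heat stress over control in brain against the length of the longest transcript (log axis) for the 10 astrocyte genes, as fitted (filled) and after correction for length and GC content (open), with the median of all tested genes in each length class as grey bars, clipped at the ends of the axis. The grey bars step down from 0.20 to -0.16, S100b lies above the bar of its class as fitted, and Aldh1l1 lies below its own.

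Other genes of the same biology were described by lists that overlap each other in a few genes, and no gene of any list passed an adjusted p of 0.05 by edgeR. Of 30 other astrocyte identity genes, all tested, 9 were lower and 1 was higher at an unadjusted p under 0.05 (10.05% and 10.0% of all tested genes), 10 were lower in all 3 heat stress libraries (11.98% of all tested genes), and the median log2 fold change was -0.22. Slc7a10, a transporter of small neutral amino acids, measured 44.1, 39.9 and 50.6 CPM in control and 31.2, 29.3 and 31.4 CPM in heat stress libraries (log2 fold change -0.55 ± 0.12, SE). It was lower in every heat stress library, with an adjusted p of 0.170 by edgeR and of 0.0241 by DESeq2. The most abundant genes of the list differed among themselves, since Sparcl1, a secreted matrix protein, did not overlap between the groups (-0.33 ± 0.16), and Apoe, the lipid carrier, did (-0.09 ± 0.16). The list's count of lower genes was 4 without heat stress library 3 (9.97% of all tested genes), 6 without heat stress library 2 (6.23%), 6 with the length and GC correction (6.23%) and 0 in the fit of all 12 libraries (4.1%). Its count of higher genes was 2 without control library 2 (13.6%) and 0 without control library 1 (5.12%) or 3 (6.44%), without heat stress library 2 (4.85%) or 3 (9.66%), in the fit of all 12 libraries (5.04%) and with the length and GC correction (6.75%).

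Of 38 reactive astrocyte genes, 30 were tested, with a median log2 fold change of -0.13, 5 lower and 1 higher at an unadjusted p under 0.05 (10.05% and 10.0% of all tested genes). Stat3, a transcription factor required for scar-forming astrocytes, measured 48.5, 48.6 and 48.2 CPM in control and 38.7, 34.3 and 35.6 CPM in heat stress libraries (-0.42 ± 0.10, SE, adjusted p = 0.170, edgeR; DESeq2 0.0452). S100a10, the partner of annexin A2, measured 25.4, 36.9 and 22.2 against 40.0, 61.5 and 38.6 CPM (0.73 ± 0.23, adjusted p = 0.172, edgeR; DESeq2 0.0496). Both separated the groups, in opposite directions. With the length and GC correction S100a10 was at 0.41 and Stat3 at -0.22. Without heat stress library 2 S100a10 was at 0.48. The cytokine gene Clcf1 also separated the groups, at 0.785 to 0.891 CPM in control and 1.11 to 1.70 CPM in heat stress libraries (adjusted p = 0.257, edgeR). The complement gene C4b did not (-0.07 ± 0.19). The count of lower genes was 2 without control library 1 (5.9% of all tested genes) and 1 in the fit of all 12 libraries (4.1%). The count of higher genes was 2 without heat stress library 1 (6.84%), 4 without heat stress library 3 (9.66%) and 2 with the length and GC correction (6.75%).

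Of 14 genes of glutamate and glutamine handling, all tested, 4 were lower and 0 higher at an unadjusted p under 0.05 (10.05% and 10.0% of all tested genes), with a median log2 fold change of -0.23. The glutamine transporters Slc38a3 (-0.48 ± 0.15, SE) and Slc38a5 (-1.38 ± 0.44) were lower in every heat stress library, with adjusted p-values of 0.172 and 0.173 by edgeR, though Slc38a5 lay at 0.369 to 2.47 CPM. The neuronal gene Slc17a7, a vesicular glutamate transporter, overlapped between the groups (-0.36 ± 0.25), with -0.54 without control library 3 and -0.04 without control library 1. The list's count of lower genes was 1 in the fit of all 12 libraries (4.1% of all tested genes).

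The 9 tested of 11 genes for other S100 proteins and the receptor Ager all had a log2 fold change above 0, where 50.3% of all tested genes lay below 0, with a median of 0.68. At an unadjusted p under 0.05, 6 were higher (10.0% of all tested genes) and 0 lower (10.05%). S100a1 measured 58.3, 103 and 77.7 CPM in control and 111, 164 and 107 CPM in heat stress libraries (0.68 ± 0.22, SE, adjusted p = 0.174, edgeR). S100a16 measured 65.1, 114 and 95.1 against 122, 153 and 112 CPM (0.50 ± 0.20, adjusted p = 0.217), with 0.31 without control library 1. As for S100b, control library 1 was the lowest and heat stress library 2 the highest for both. S100a4 (0.69 ± 0.30, adjusted p = 0.237) separated the groups at 2.75 to 4.54 and 4.62 to 7.88 CPM. Without heat stress library 2 the log2 fold change of S100a4 was 0.38. With the length and GC correction it was 0.24, and that of S100a1 was 0.41. The count of 6 was 1 without heat stress library 2 (4.85% of all tested genes) and 2 without control library 1 (5.12%) or control library 3 (6.44%). With the length and GC correction it was 2 (6.75%), with a median of 0.39.

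Of 11 other intermediate filament genes, 4 were lower and 1 was higher at an unadjusted p under 0.05 (10.05% and 10.0% of all tested genes). The lower count was 6 without control library 2 (13.3%) and 2 in the fit of all 12 libraries (4.1%), and the higher count was 0 without heat stress library 1 (6.84%). Nefm, of the neuronal neurofilament, measured 309, 188 and 272 CPM in control and 183, 133 and 156 CPM in heat stress libraries (-0.70 ± 0.19, SE, adjusted p = 0.170, edgeR; DESeq2 0.0246), Nefl, of the same filament, was at -0.0080 ± 0.14, and Prph, peripherin, was at 1.17 ± 0.39 (adjusted p = 0.175). Of 10 tested connexin and pannexin genes, 1 was lower at that threshold (10.05% of all tested genes), Gjc1 (-0.89 ± 0.34, adjusted p = 0.208), and the more abundant Panx2 (-0.09 ± 0.12) and Gjc3 (-0.02 ± 0.22) overlapped between the groups. Gjc1 was at 9.23 CPM in control library 3 and at 3.05 to 4.94 CPM elsewhere, and without that library (8.12% of all tested genes) or heat stress library 3 (9.97%) no gene of the list was lower at that threshold, while without control library 2 (13.3%) or heat stress library 2 (6.23%) there were 2. None was lower with limma-voom (9.67% of all tested genes) or with the stricter filter of at least 50 counts in 3 libraries (11%), which left Gjc1 and Prph untested.

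Of 12 endfoot and aquaporin genes, 4 were lower and 0 higher at an unadjusted p under 0.05 (10.05% and 10.0% of all tested genes), with a median of -0.24. Dag1, dystroglycan, which ties the endfoot to the basal lamina, measured 98.9, 86.1 and 84.9 CPM in control and 62.5, 62.3 and 61.5 CPM in heat stress libraries (-0.54 ± 0.10, SE, adjusted p = 0.170, edgeR; DESeq2 0.00999). With the length and GC correction Dag1 was at -0.34. Kcnj10, the potassium channel Kir4.1 of the endfoot, measured 281, 285 and 351 against 277, 226 and 178 CPM (-0.43 ± 0.17, adjusted p = 0.225, edgeR), with -0.28 without heat stress library 3. Aqp1, the water channel of the choroid plexus, measured 10.0, 6.02 and 15.5 against 3.42, 5.20 and 2.27 CPM (-1.53 ± 0.38, adjusted p = 0.170, edgeR; DESeq2 0.0162). All 3 were lower in every heat stress library, while Mlc1, a membrane protein of the endfoot, overlapped (-0.04 ± 0.14). The count of 4 was 2 without control library 3 (8.12% of all tested genes), without heat stress library 2 (6.23%) or 3 (9.97%), in the fit of all 12 libraries (4.1%) and with the length and GC correction (6.23%).

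Markers of other cells and regions also differed between the groups of brain libraries, though none passed an adjusted p of 0.05 by edgeR. Of 8 endothelial markers 7 were lower at an unadjusted p under 0.05, where 10.05% of all tested genes were lower and 10.0% higher, with sums of 247 to 410 CPM in control and 181 to 225 CPM in heat stress libraries. Of 5 oligodendrocyte precursor markers 4 were lower, with sums of 192 to 200.1 and 140.4 to 149 CPM. Choroid plexus markers (2 of 6 lower) summed to 1256 to 2494 CPM in control and 260.5 to 1130 CPM in heat stress libraries, and striatal markers (6 of 7 higher) to 385 to 665 and 626 to 1471 CPM. Markers of microglia (2 higher and 1 lower of 9), mural cells and fibroblasts (1 lower of 7), ependymal cells (1 lower of 6), neurons (0 of 8) and cortex and hippocampus (0 of 6) had summed levels that overlapped between the groups. No marker of these lists was at 0 in all brain libraries. The part of tissue composition in the values of the astrocyte genes was not tested.

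The same genes were then examined in liver, where several have other carriers, such as glutamine synthetase and Slc1a2 in the hepatocytes around the central vein and vimentin in endothelial, stellate and Kupffer cells. Vim measured 16.5, 17.3 and 17.5 CPM in control and 25.9, 28.7 and 23.03 CPM in heat stress libraries, 1.52-fold higher and without overlap. Its log2 fold change was 0.60 ± 0.17 (SE, n = 3 per group, unadjusted p = 0.00484, adjusted p = 0.486, edgeR's quasi-likelihood test), and 0.48 without both liver libraries that held muscle transcripts. Markers of mural cells and fibroblasts summed to 181 to 219 CPM in control and 177 to 261 CPM in heat stress liver, those of microglia, which Kupffer cells share in part, to 87.7 to 114 and 109.5 to 166 CPM, and those of endothelium to 139 to 148 and 161 to 190.0 CPM. Their part in the Vim values was not tested.

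Of the 10 genes 7 were tested in liver among 12296 genes, and none passed an adjusted p of 0.05 by edgeR, DESeq2 or limma-voom, where edgeR and limma-voom called 0 of all tested genes and DESeq2 called 66 of 12276. At an unadjusted p under 0.05, 1 was higher and 0 were lower, where 2.97% of all tested genes were higher and 2.87% lower (5.84% in either direction). The groups did not overlap in the higher direction for 1 of the 7 and for 5.38% of all tested genes, and in the lower direction for 0 of the 7 and for 5.73%. After the length and GC correction the count was the same, where 4.12% of all tested genes were higher and 4.59% lower, and Vim was at 0.61 (adjusted p = 0.177, edgeR). Glul measured 653, 734 and 582 CPM in control and 710, 836 and 875 CPM in heat stress libraries (0.30 ± 0.19, SE, adjusted p = 0.934, edgeR). Aldh1l1 measured 1554, 856 and 835 against 1096, 1423 and 1185 CPM (0.19 ± 0.27, adjusted p = 0.964), with the highest value in control library 1, without which the log2 fold change was 0.54, and 0.03 without control library 3. Slc1a2 measured 148, 187 and 160 against 142, 195 and 193 CPM (0.10 ± 0.20, adjusted p = 0.975), and all 3 of these genes overlapped between the groups. Aqp4, Gja1 and Sox9 lay at 2.01 to 5.09 CPM, with log2 fold changes of 0.09, 0.16 and -0.19.

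Gfap, S100b and Slc1a3 were too low in liver to be tested. Gfap had 21, 5 and 6 counts in control and 3, 8 and 10 counts in heat stress libraries. S100b had 18, 0 and 2 against 0, 4 and 5 counts, and Slc1a3 had 21, 4 and 6 against 4, 8 and 3 counts. For all 3 genes control library 1 was the highest, the library that also held the most neuron markers (31.4 CPM against 13.3 to 18.4) and oligodendrocyte markers (49.9 CPM against 14.4 to 22.3). A count of 0 allows up to 3 counts, and this limit covers counting error only.

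Whether the heat stress effect differed between liver and brain was tested in the fit of all 12 libraries. The paper took brain and liver from the same groups of mice, so libraries of both tissues may share animals. The fit treated the 12 libraries as independent, and its p-values do not account for shared animals. None of the 10 genes passed an adjusted p of 0.05 by edgeR or DESeq2, where 0.00632% of the 15824 tested genes did by edgeR and 43 of 15766 did by DESeq2. Of the 10, Gfap, S100b and Slc1a3 passed the filter of this fit only through brain. Their liver counts are too low to decide whether the effect differed. At an unadjusted p under 0.05, 1 of the 10 was called, where 9.64% of all tested genes were. It was Vim, with a liver minus brain difference in log2 fold change of 0.74 ± 0.34 (SE, unadjusted p = 0.0489, adjusted p = 0.516, edgeR), and the count of members with a higher difference was 0 in 7 of the 12 fits that left out a library. The differences of Aldh1l1 (0.66 ± 0.39, adjusted p = 0.578) and Glul (0.45 ± 0.26, adjusted p = 0.577) did not pass. The differences for Gfap, S100b and Slc1a3 rested on liver control library 1, without which that of S100b went from -1.70 to 0.83, that of Gfap from -0.73 to 0.10 and that of Slc1a3 from -0.89 to 0.03.

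In the control libraries, 8 of the 10 genes were higher in brain than in liver at an adjusted p under 0.05, where 44.2% of all tested genes were, and 1 was lower, where 36.1% were. The fit behind these counts likewise had no term for the animal. Slc1a3, S100b and Gfap, too low in liver to be tested there, passed the filter only through brain. Their place in the count of 8 was therefore set by the filter and supports no conclusion. The log2 differences of brain minus liver were 8.61 for Slc1a3, 7.83 for S100b, 7.48 for Gfap, 5.32 for Gja1, 4.51 for Aqp4, 3.37 for Slc1a2, 2.62 for Sox9 and 0.68 for Glul, against a median of 0.24 over all tested genes. The sizes for Slc1a3, S100b and Gfap rest on few liver counts, and without liver control library 1, an alternative chosen after seeing the data, they were 9.53, 10.36 and 8.32. Aldh1l1 was 32.2-fold lower in brain (-5.01 ± 0.33, SE, adjusted p = 5.7e-09, edgeR). The Vim difference did not pass (0.19 ± 0.24, adjusted p = 0.490, edgeR), but with library totals in place of TMM factors, which moved the median of all genes to 1.33, it was higher in brain by 1.28 (adjusted p = 0.00028). Library totals also put the difference of Glul at 1.76 and that of Aldh1l1 at -3.89.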

How the data were processed

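Stranded messenger RNA libraries were sequenced from brain and liver, with 3 control and 3 heat stress libraries in each tissue. The authors deposited raw read counts per gene symbol, without normalization. Per the submitters' processing notes, reads were trimmed with Trimmomatic 0.39, aligned to mm10 with HISAT2 2.2.1 and counted with featureCounts of Subread 2.0.1, while the paper's methods also describe Tophat2 and HTSeq. The annotation, the use of strand and the treatment of shared reads are not given in the sources used here. The deposited tables of DESeq2 comparisons, with log2 fold changes and p-values by the authors, were not used.

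Counts were analysed in R 4.3.3 with edgeR 4.0.16 (quasi-likelihood test, robust, TMM, filterByExpr with a minimum count of 10 and a total of 15), with Benjamini-Hochberg adjustment over all genes tested in the tissue. DESeq2 1.42.0, limma 3.58.1 (voom), other scalings and filters, a replicate block, a length and GC correction and leaving out libraries were the alternatives. Standard errors are on the log2 scale. Coordinates and lengths follow the GENCODE M21 annotation of GRCm38 (mm10), and promoters from RefSeq on GRCm38.p6. Total counts of 10466198 to 15609040 per library set the depth. The procedures were tested on simulated data whose set changes were larger than any heat stress change of the members. That test does not show how often changes of the members' size are found. The members and lists were chosen with earlier results of these data known. From each list of related genes the text names the 2 with the highest mean brain CPM and up to 2 with the largest fold change among those whose brain groups do not overlap. Nearest profiles are the 5 with the smallest root mean square difference. Some genes that these rules select are not reported here. A few other genes and the marker lists are given where a result touches them.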

Additional observations from a re-analysis of the deposited data

How the results depend on the processing

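Under every alternative for brain and liver, libraries left out included, no member passed an adjusted p of 0.05. At an unadjusted p under 0.05, members higher in brain went from 0 to 1 with DESeq2 (9.21% of all tested genes) and with the replicate block (9.84%), and members lower in brain from 1 to 0 in the fit of all 12 libraries (4.1%) and to 2 with the length and GC correction (6.23%). Higher members of the liver minus brain difference went from 1 (3.73% of all tested genes) to 3 with DESeq2 (5.11%). With a library left out, the counts were 1 to 3 lower (5.9% to 13.3% of all tested genes) and 0 to 1 higher (4.85% to 13.6%) in brain, 1 to 2 higher in liver (1.78% to 7.11%), and 0 to 2 higher (2.03% to 11.3%) and 0 to 2 lower (2.71% to 7.64%) for the difference. With the replicate block, lower genes went from 5 to 3 on the reactive list and from 4 to 2 on the endfoot list (9.42%). Within a tissue, deviations of same-numbered control and heat stress libraries correlated at -0.301, 0.232 and -0.204 in brain and -0.625, -0.546 and -0.0921 in liver. Whether same-numbered brain and liver libraries came from the same animal was not checked.

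Some signs turned. In brain these were Nefl at 0.0051 with upper quartile scaling, Gjc3 at 0.030 with limma-voom and 0.033 with the replicate block, and with the length and GC correction C4b at 0.14, Nefl at 0.014, Panx2 at 0.055 and Mlc1 at 0.00027. The Sox9 difference between tissues was 0.019 with DESeq2 size factors and 0.019 with DESeq2. Without both liver libraries that held muscle transcripts, an alternative added after seeing the data, liver Aqp4 was -0.073 and Slc1a2 -0.064, and the differences between tissues were 0.023 for Gfap and 0.61 for S100b. With a library left out, brain values ranged from -0.16 to 0.027 for Apoe, -0.21 to 0.088 for Aqp4, -0.23 to 0.089 for C4b, -0.22 to 0.23 for Gfap, -0.22 to 0.29 for Gjc3, -0.11 to 0.094 for Mlc1, -0.14 to 0.081 for Nefl, -0.18 to 0.013 for Panx2 and -0.49 to 0.11 for Vim. Liver Aqp4 ranged from -0.22 to 0.26. The differences between tissues ranged from -0.23 to 0.35 for Aqp4, -1.12 to 0.10 for Gfap, -2.30 to 0.83 for S100b, -1.37 to 0.034 for Slc1a3 and -0.16 to 0.15 for Sox9. The causes were not tested. With 3 libraries per group, an exact permutation test of a single value cannot go below 0.1.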
